A study of Homo sapiens with 9 samples.

Results

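The genes described here are 10 members of the BCL2 family, whose proteins decide whether mitochondria release the factors that start apoptosis: BMF, BCL2L11, BBC3, BIK, BAD, BID, BAX, BAK1, BCL2L1 and MCL1. They were chosen by name, with BMF singled out, and each is represented by the RefSeq transcript entry with the highest total count over the 9 libraries. All 10 were found among the 27736 genes with a named entry, and all 10 passed the filter on low counts, which left 14683 genes for testing. Because BMF was singled out with its levels in these libraries known, its values are given as a description and were not tested. The other 9 members were also chosen with earlier results of these data known, which limits how their p-values can be read.

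The cells were Caco-2, a human colon adenocarcinoma line that often stands in for gut epithelium, kept in medium with lipid-depleted fetal bovine serum, and their polyadenylated RNA was sequenced. The 3 groups of 3 libraries came from cells given 10 µM lovastatin with 10 µM SGA360, 10 µM lovastatin with 10 µM SGA315, or 10 µM lovastatin alone, each for 48 h. SGA360 and SGA315 are described by the submitters as AHR ligands (AHR, the aryl hydrocarbon receptor, acts on genes as a transcription factor once a ligand binds it), and lovastatin, a statin, inhibits the enzyme that makes mevalonate. Every group therefore carries the statin, cells without lovastatin were not analysed here, and the design holds 1 cell line. Levels are in CPM, read counts scaled to library size with TMM factors, given per library or as mean ± SD over 3 libraries, and changes are log2 fold changes with their standard error; a gene is called, or said to rise or fall, where its adjusted p was under 0.05. Nothing in the labels ties the libraries of a group to separate cultures; the p-values therefore measure only how these libraries vary, and that variation may be technical.

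The BCL2 family has 3 kinds of member. BCL2L1, which encodes BCL-XL, and MCL1 are anti-apoptotic and hold the effectors BAX and BAK1 in check, while BAX and BAK1 form pores in the outer mitochondrial membrane when they are set free. The BH3-only proteins carry a single short domain, BH3, with which they bind the anti-apoptotic members or activate the effectors; BMF, BCL2L11 (BIM), BBC3 (PUMA), BIK, BAD and BID belong to this kind. In the intestinal epithelium the family is known for its part in cell turnover and in the death of cells that lose their attachment, known as anoikis.

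Summed over the retained genes, libraries held 12343137 to 16882576 counts with SGA360, 12894186 to 14747300 with SGA315 and 14141236 to 16316266 with lovastatin alone. All 9 libraries correlated best with a library of their own group, and the biological coefficient of variation was 2.16%. CYP1A1, the classical AHR target, had 5.45 ± 0.402 CPM with SGA360, 1053 ± 29.9 CPM with SGA315 and 44.6 ± 3.82 CPM with lovastatin alone (n = 3 each). Of 7 markers of the intestinal epithelial cell 5 passed the filter, with a summed level of 1763 to 1819 CPM with SGA360, 1719 to 1796 CPM with SGA315 and 2254 to 2275 CPM with lovastatin alone (KRT20 and LGALS4 did not pass it). Of 4 leukocyte markers CD68 passed the filter, and the list summed to 5.19 to 6.45 CPM with SGA360, 5.75 to 6.84 CPM with SGA315 and 4.67 to 4.98 CPM with lovastatin alone, with PTPRC at or below 0.592 CPM. Of 3 endothelial markers PECAM1 and VWF passed it, and the list summed to 1.68 to 2.52 CPM with SGA360, 2.5 to 3.08 CPM with SGA315 and 1.75 to 3.08 CPM with lovastatin alone. COL1A2, DCN and CDH5 stayed at or below 0.0673 CPM in every library, whereas the fibroblast list, of which PDGFRA passed the filter, summed to 168.5 to 178.6 CPM with SGA360, 186.1 to 189 CPM with SGA315 and 357.2 to 363.7 CPM with lovastatin alone. The entry of 45S ribosomal RNA took 0.43 to 0.659% of counts with SGA360, 0.235 to 0.316% with SGA315 and 0.52 to 0.724% with lovastatin alone, and the part of these markers and of ribosomal RNA in the results below was not tested. Scaling to library totals in place of TMM moved the median change over all genes (log2) to 0.14 for SGA360, against 0.02 with TMM, and to 0.16 for SGA315, against 0.04 with TMM, so that changes below are relative to TMM.

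BMF, the BH3-only gene whose protein binds dynein light chain at the cytoskeleton and is known as a trigger of anoikis, was lower with SGA360 and higher with SGA315 than with lovastatin alone. Its level was 75.7, 73.8 and 77.1 CPM in the 3 SGA360 libraries, 180.3, 176.8 and 179.4 CPM in the SGA315 libraries and 111.1, 118.9 and 119.1 CPM with lovastatin alone. The libraries of the 3 groups did not overlap: every SGA360 library was below every library with lovastatin alone, and every SGA315 library was above them. The log2 fold change was −0.63 ± 0.038 for SGA360 against lovastatin alone, a level 1.54-fold lower, and 0.62 ± 0.034 for SGA315 against lovastatin alone, a level 1.54-fold higher. Between the ligands BMF was 2.37-fold lower with SGA360 than with SGA315 (log2 fold change −1.25 ± 0.036). These values rest on 980 to 1274 counts per library with SGA360, 2372 to 2742 with SGA315 and 1584 to 1837 with lovastatin alone. The 4 RefSeq entries of BMF share most of their reads and gave −0.63 to −0.62 for SGA360 and 0.62 to 0.63 for SGA315 against lovastatin alone, so the entry made little difference. In bulk RNA, a change in the share of cells that express a gene and a change in RNA per cell cannot be told apart.

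**Figure D1:**
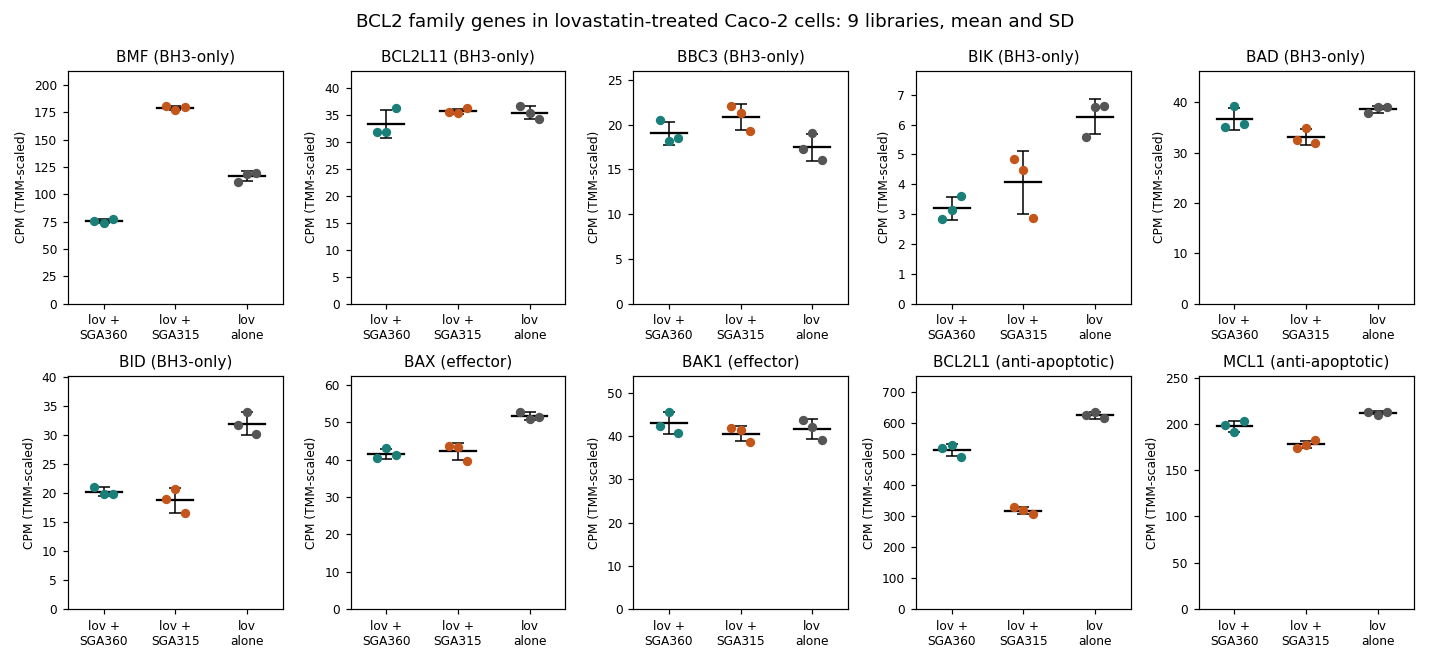
Level of each of the 10 genes (CPM with TMM scaling, vertical axis from 0 in each panel) in cells given lovastatin with SGA360, lovastatin with SGA315, or lovastatin alone. Points are libraries, horizontal bars are means and error bars are SD over 3 libraries; BMF is lowest with SGA360 and highest with SGA315, and BCL2L1 is lowest with SGA315.

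The start regions of BMF, BCL2L1 and BID are shown because BMF had opposite directions with the ligands, BCL2L1 had the largest fall among the members with SGA315, and BID fell with both. The sequences are RefSeq promoters of GRCh38.p14, from 250 bases before to 50 bases after the annotated start, read 5′ to 3′ on the gene's strand, with matches to GCGTG, the core of the AHR binding site, in capitals. The files use hg19, and no coordinate below was used with them.

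BMF, chr15:40108830-40109129, minus strand: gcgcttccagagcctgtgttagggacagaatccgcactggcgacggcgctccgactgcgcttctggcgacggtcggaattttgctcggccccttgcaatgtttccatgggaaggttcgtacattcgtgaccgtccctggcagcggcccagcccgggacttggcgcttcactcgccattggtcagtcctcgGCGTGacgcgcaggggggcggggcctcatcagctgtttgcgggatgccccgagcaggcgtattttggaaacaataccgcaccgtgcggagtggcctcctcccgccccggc

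BCL2L1, chr20:31723914-31724213, minus strand: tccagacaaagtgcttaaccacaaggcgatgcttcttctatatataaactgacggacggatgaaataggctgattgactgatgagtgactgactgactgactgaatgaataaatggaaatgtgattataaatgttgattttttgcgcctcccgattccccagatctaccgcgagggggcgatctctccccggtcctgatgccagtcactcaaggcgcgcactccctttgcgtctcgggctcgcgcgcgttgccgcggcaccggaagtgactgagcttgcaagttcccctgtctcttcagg

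BID, chr22:17774420-17774719, minus strand: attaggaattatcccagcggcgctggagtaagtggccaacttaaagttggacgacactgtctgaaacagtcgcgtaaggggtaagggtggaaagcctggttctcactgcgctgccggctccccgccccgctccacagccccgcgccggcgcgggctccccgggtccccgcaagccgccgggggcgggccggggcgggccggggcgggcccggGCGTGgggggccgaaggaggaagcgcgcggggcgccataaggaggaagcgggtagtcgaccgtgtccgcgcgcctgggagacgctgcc

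Both strands were searched for GCGTG. BMF had 1 match, whose first base lies at −60 from the start, BID had 1 at −38 and BCL2L1 had 0. Of the 8 members with a promoter in the table, 4 held at least 1 match (BMF, BCL2L11, BAD and BID), against 36.5% of all 35116 promoters of the same length. The letters of the FOXO core site, GTAAACA, searched on both strands, occurred in 1 of the 8, BCL2L11 at −223, against 3.42% of all promoters. BIK and MCL1 had no entry. A match of letters is a description of these windows and was not tied to binding.

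Among the other 5 BH3-only genes BID and BIK fell with both ligands. BID, which is cut by caspase 8 to link death receptors to mitochondria, had 21, 19.8 and 19.9 CPM with SGA360, 19, 20.7 and 16.5 CPM with SGA315 and 31.7, 34 and 30.1 CPM with lovastatin alone. Every library of both ligand groups was below every library with lovastatin alone. The log2 fold change was −0.65 ± 0.067 for SGA360 (edgeR quasi-likelihood test, Benjamini-Hochberg adjusted p = 2.56e-13) and −0.76 ± 0.07 for SGA315 (adjusted p = 1.69e-15). BIK, an endoplasmic reticulum BH3-only protein gene, was the least counted member, with 46 to 54 counts per library with SGA360, 38 to 74 with SGA315 and 83 to 102 with lovastatin alone. It had 2.83, 3.13 and 3.62 CPM with SGA360, 4.86, 4.49 and 2.88 CPM with SGA315 and 5.59, 6.6 and 6.61 CPM with lovastatin alone. BIK was 1.98-fold lower with SGA360 (log2 fold change −0.99 ± 0.153, edgeR adjusted p = 7.05e-08) and 1.52-fold lower with SGA315 (−0.60 ± 0.147, edgeR adjusted p = 0.000241).

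BBC3, a p53 target whose protein binds all anti-apoptotic members, was the only 1 of the other 9 members that was called higher against lovastatin alone. It had 20.5, 18.1 and 18.5 CPM with SGA360, 22, 21.2 and 19.3 CPM with SGA315 and 17.3, 19.1 and 16.1 CPM with lovastatin alone. The SGA315 libraries lay above those with lovastatin alone by a narrow margin (log2 fold change 0.26 ± 0.077, edgeR adjusted p = 0.00198), and the SGA360 libraries overlapped them (0.13 ± 0.077, edgeR adjusted p = 0.135; with scaling to totals only 0.25, adjusted p = 0.00451, a call; 0.00451 to 0.61 over the alternatives). BAD, whose protein is held inactive by 14-3-3 proteins when phosphorylated, had 35.2, 39.2 and 35.7 CPM with SGA360, 32.6, 35 and 31.9 CPM with SGA315 and 37.9, 39 and 39.2 CPM with lovastatin alone. It fell by 0.22 ± 0.057 on the log2 scale with SGA315 (edgeR adjusted p = 0.000467), a call lost when libraries were scaled to their totals (−0.10, adjusted p = 0.111; 0.000113 to 0.111 over the alternatives), and had a log2 fold change of −0.07 ± 0.055 with SGA360 (edgeR adjusted p = 0.251), which was called without SGA360 replicate 2 (−0.14, adjusted p = 0.0433; 0.0433 to 0.501 over the alternatives). BAD overlaps GPR137 on the opposite strand, at 4006 counts in all against 4819 for BAD, and the strand setting is not given, so its counts are uncertain.

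BCL2L11, the BH3-only gene that encodes BIM, showed no call against lovastatin alone. Its level was 31.8, 31.8 and 36.2 CPM with SGA360, 35.6, 35.3 and 36.2 CPM with SGA315 and 36.5, 35.4 and 34.2 CPM with lovastatin alone, and the groups overlapped. The log2 fold change was −0.10 ± 0.057 for SGA360 (edgeR adjusted p = 0.132) and 0.01 ± 0.057 for SGA315 (edgeR adjusted p = 0.864), with 95% intervals of −0.21 to 0.02 and −0.10 to 0.13. Without the third SGA360 library, the highest of its group, the value for SGA360 was −0.17 and was called (adjusted p = 0.015; 0.015 to 0.803 over the alternatives). With scaling to totals only the value for SGA315 was 0.13 and was called (adjusted p = 0.035; 0.035 to 0.995 over the alternatives). BCL2L11 has 18 RefSeq entries, of which 2 held 10.8 and 11% of the counts of the highest and the others at least 93.9%, so most entries repeat the same reads and isoforms were not separated.

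Of the effectors BAX fell with both ligands and BAK1 had no call. BAX had 40.4, 43.1 and 41.1 CPM with SGA360, 43.6, 43.5 and 39.6 CPM with SGA315 and 52.8, 50.9 and 51.3 CPM with lovastatin alone. Neither ligand group overlapped lovastatin alone, at log2 fold changes of −0.31 ± 0.049 for SGA360 (edgeR adjusted p = 9.89e-08) and −0.29 ± 0.05 for SGA315 (edgeR adjusted p = 6.77e-07). Over the 9 entries of BAX the SGA360 value lay between −0.38 and −0.29, and the SGA315 value between −0.44 and −0.26. BAK1 had 42.4, 45.7 and 40.7 CPM with SGA360, 41.9, 41.4 and 38.5 CPM with SGA315 and 43.7, 42.2 and 39.2 CPM with lovastatin alone. Its log2 fold changes were 0.05 ± 0.053 (95% interval −0.06 to 0.16, edgeR adjusted p = 0.422) for SGA360 and −0.04 ± 0.054 (95% interval −0.14 to 0.07, edgeR adjusted p = 0.572) for SGA315. With scaling to totals only the value for SGA360 was 0.16 and was called (adjusted p = 0.00578; 0.00578 to 0.896 over the alternatives). RefSeq names 2 pseudogene copies of BAK1, and how shared reads were counted is not given.

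Both anti-apoptotic members fell with both ligands, and BCL2L1 had the largest fall of the 9 tested members with SGA315. BCL2L1 had 518.9, 530.3 and 491.4 CPM with SGA360, 327.9, 319.5 and 305.2 CPM with SGA315 and 625, 637.3 and 615.3 CPM with lovastatin alone. The 3 groups did not overlap, and the SGA315 libraries were the lowest. BCL2L1 fell by 0.28 ± 0.028 on the log2 scale with SGA360 (edgeR adjusted p = 3.27e-14) and by 0.98 ± 0.029 with SGA315 (edgeR adjusted p = 1.05e-40), where its level was 1.97-fold lower. Its 9 entries, which include the transcripts of BCL-XL and of the short pro-apoptotic form BCL-XS, each held at least 93.7% of the total of the highest and share exons, so the forms were not separated. BCL2L1 overlaps the long non-coding RNA genes LOC124904883, on the opposite strand, and BCL2L1-AS1, which have no counts here. The strand setting is not given, so what part of the BCL2L1 counts comes from them is unknown. MCL1, a short-lived anti-apoptotic protein gene, had 198.9, 191.2 and 202.6 CPM with SGA360, 174.2, 177 and 182.2 CPM with SGA315 and 213.3, 209.9 and 212.3 CPM with lovastatin alone. These groups also did not overlap. MCL1 fell by 0.25 ± 0.031 with SGA315 (edgeR adjusted p = 4.53e-11) and by 0.10 ± 0.03 with SGA360 (edgeR adjusted p = 0.00231), and the SGA360 call was lost when libraries were scaled to their totals, where the value turned to 0.01 (adjusted p = 0.736; 0.000389 to 0.736 over the alternatives).

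**Figure D2:**
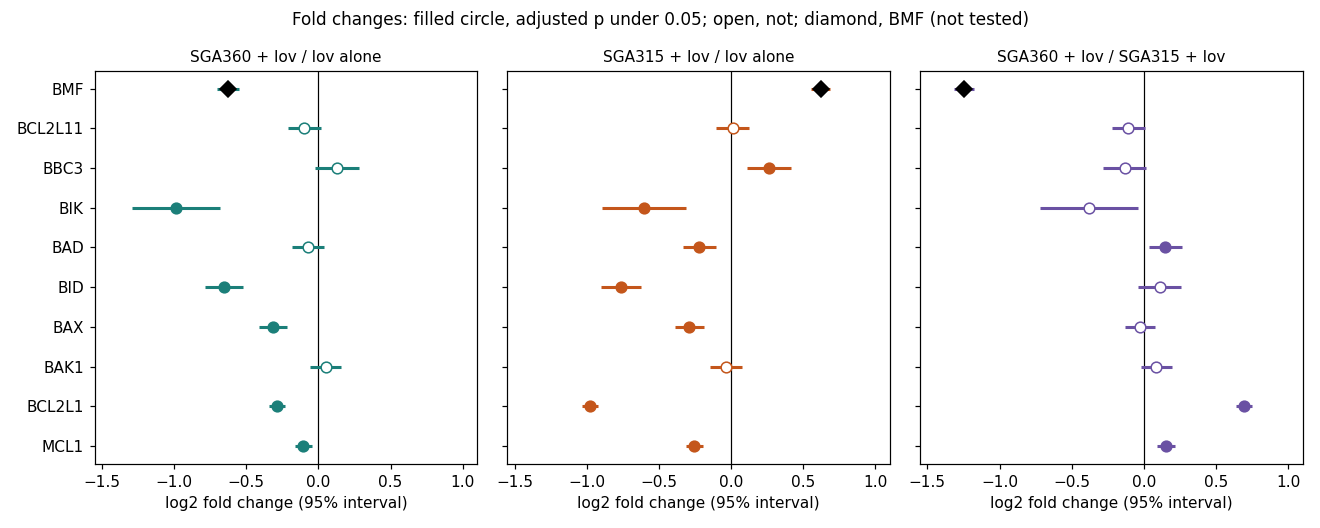
Log2 fold changes (horizontal axis) with 95% intervals for SGA360 with lovastatin over lovastatin alone, SGA315 with lovastatin over lovastatin alone, and SGA360 over SGA315. Filled circles passed an adjusted p of 0.05, open circles did not, and diamonds mark BMF, which was not tested; BCL2L1 at −0.98 with SGA315 has the largest fall of the tested members there, and BIK at −0.99 with SGA360.

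Against lovastatin alone, 0 of the 9 members other than BMF rose and 5 fell with SGA360, where 62.7% of all genes tested were called in either direction and 31.4% were called lower. With SGA315 1 rose and 6 fell, where 69.2% of all genes were called, 36.0% higher and 33.2% lower. The groups' CPM did not overlap for 5 members with SGA360, against 66.3% of all genes, and for 7 members with SGA315, against 70.3%. Counted in either direction, the shares of members called or not overlapping were near those of all genes, while more of the members than of all genes were called lower and fewer higher. The median log2 fold change of the 9 members was −0.10 with SGA360 and −0.25 with SGA315, beside 0.02 and 0.04 over all genes. With scaling to totals only 2 members were higher and 4 lower with SGA360, and 2 were higher and 5 lower with SGA315; over all genes the calls were then 6477 higher and 3136 lower with SGA360 (4605 and 4604 with TMM) and 6932 higher and 3619 lower with SGA315 (5287 and 4875 with TMM). Both comparisons share the 3 libraries with lovastatin alone. None of the 9 members changed at least 2-fold in a call, where 4.56% of all genes did with SGA360 and 6.95% with SGA315.

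The comparison of the ligands with each other, at matched dose and time, asked where the responses to these AHR ligands differ, and it is the only pair of compounds compared. BCL2L1 was 1.62-fold higher with SGA360 than with SGA315 (log2 fold change 0.69 ± 0.029, edgeR adjusted p = 4.43e-31), at 513.5 ± 20 CPM with SGA360 and 317.6 ± 11.4 CPM with SGA315. MCL1 was higher by 0.15 ± 0.031 on the log2 scale (edgeR adjusted p = 4e-05), at 197.6 ± 5.85 CPM with SGA360 and 177.8 ± 4.06 CPM with SGA315 (n = 3 each). BAD was higher by 0.15 ± 0.057 (edgeR adjusted p = 0.0272), a call that ended with DESeq2 (adjusted p = 0.0827), without SGA360 replicate 2 (adjusted p = 0.257) and without SGA315 replicate 1 or 3 (adjusted p = 0.094 and 0.0965; 0.0119 to 0.257 over the alternatives). These 3 were the members called higher and 0 were called lower, where 42.7% of all genes were called in either direction, 21.8% higher and 20.9% lower; the CPM did not overlap for 3 members, against 49.2% of all genes. None of the 3 differed at least 2-fold, as 1.40% of all genes did in a call. The median over the 9 members was 0.09, beside −0.01 over all genes.

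For the other 6 members the difference between the ligands was bounded rather than shown. The 95% interval of the log2 fold change of SGA360 over SGA315 was −0.13 to 0.08 for BAX, −0.02 to 0.19 for BAK1, −0.04 to 0.26 for BID, −0.28 to 0.02 for BBC3 and −0.22 to 0.01 for BCL2L11. The interval for BIK, −0.72 to −0.04, did not hold 0, but its adjusted p was 0.062 (edgeR). BIK was called without SGA360 replicate 3 (adjusted p = 0.0414) and without SGA315 replicate 3, the lowest library of its group (−0.57, adjusted p = 0.00548; 0.00548 to 0.371 over the alternatives). BCL2L11 was called without SGA360 replicate 3 (−0.16, adjusted p = 0.0255; 0.0255 to 0.369 over the alternatives).

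Levels were set against each other per length, as CPM per kilobase of the GENCODE 29 transcript matched to each entry, since longer transcripts give more reads. This order rests on the length matched to the entry chosen for each gene. The GENCODE transcripts matched to entries with nearly the same counts were 492 to 4687 bases long for BMF. They were 1110 to 3932 bases long for MCL1 and 243 to 5231 for BCL2L11. A matched length therefore need not be the length of the entry that was counted. With SGA360 BCL2L1 led at 196.7 ± 7.66 CPM per kilobase, ahead of BAX at 52.4 ± 1.71 and MCL1 at 50.2 ± 1.49, which overlapped. With SGA315 BCL2L1 stood at 121.7 ± 4.39 and was followed by BAX at 53.2 ± 2.83, MCL1 at 45.2 ± 1.03 and BMF at 38.1 ± 0.392. With lovastatin alone the order was BCL2L1 at 239.8 ± 4.22, BAX at 65.2 ± 1.29, MCL1 at 53.9 ± 0.445, BAD at 33.4 ± 0.604 and BMF at 24.8 ± 0.972 (SD, n = 3 each). At these lengths BMF was the highest BH3-only transcript with SGA315, while BAD was so in the other groups, where BMF ranked 6 of 10 with SGA360 and 5 of 10 with lovastatin alone. At these lengths BCL2L11 and BIK were at the foot of the order in all groups, at 6.36 ± 0.492 and 3.35 ± 0.416 with SGA360, 6.82 ± 0.0879 and 4.28 ± 1.11 with SGA315, and 6.76 ± 0.221 and 6.58 ± 0.62 CPM per kilobase with lovastatin alone, where they overlapped. Apart from these and the pair of BAX and MCL1 with SGA360, neighbours in the order did not overlap between their 3 libraries. The shortest length matched to any entry of each gene was also used, a setting chosen after seeing the data. BMF then ranked 3 of 10 with SGA360, 1 of 10 with SGA315 and 2 of 10 with lovastatin alone. BCL2L11 ranked 4, 3 and 4, so the order between genes was not settled.

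As a share of the summed length-scaled level of the 10 genes, the 2 anti-apoptotic genes made up 61.8 to 62.9% with SGA360, 49 to 50.2% with SGA315 and 61.9 to 62% with lovastatin alone. The 6 BH3-only genes made up 19.2 to 19.9% with SGA360, 28.9 to 29.4% with SGA315 and 19.6 to 20.5% with lovastatin alone. With the shortest lengths they made up 41.1 to 43.1% with SGA360, 58.1 to 58.7% with SGA315 and 44 to 45% with lovastatin alone. The balance between BH3-only and anti-apoptotic transcripts was therefore not settled. The effectors made up 17.9 to 18.7% with SGA360, 20.9 to 21.7% with SGA315 and 17.5 to 18.4% with lovastatin alone. The SGA315 libraries had the lowest anti-apoptotic share, also with the shortest lengths, where it was 42.9 to 44.5% with SGA360, 28.7 to 29.2% with SGA315 and 41.2 to 41.5% with lovastatin alone. The effector share was highest with SGA315 at the lengths used and lowest there with the shortest lengths (14 to 14.9% with SGA360, 12.1 to 13% with SGA315 and 13.8 to 14.5% with lovastatin alone). The share of BMF was highest with SGA315 at the lengths used, at 11.3 ± 0.393% of the summed level with SGA315 against 4.07 ± 0.177% with SGA360 and 5.24 ± 0.218% with lovastatin alone. The ratio of BMF to BCL2L1 per length was 0.0812, 0.0775 and 0.0873 with SGA360, 0.306, 0.308 and 0.327 with SGA315 and 0.099, 0.104 and 0.108 with lovastatin alone. The length sets the size of this ratio but not how it compares between groups. These shares and ratios are descriptions of transcript levels that contain BMF, and they were not tested.

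**Figure D3:**
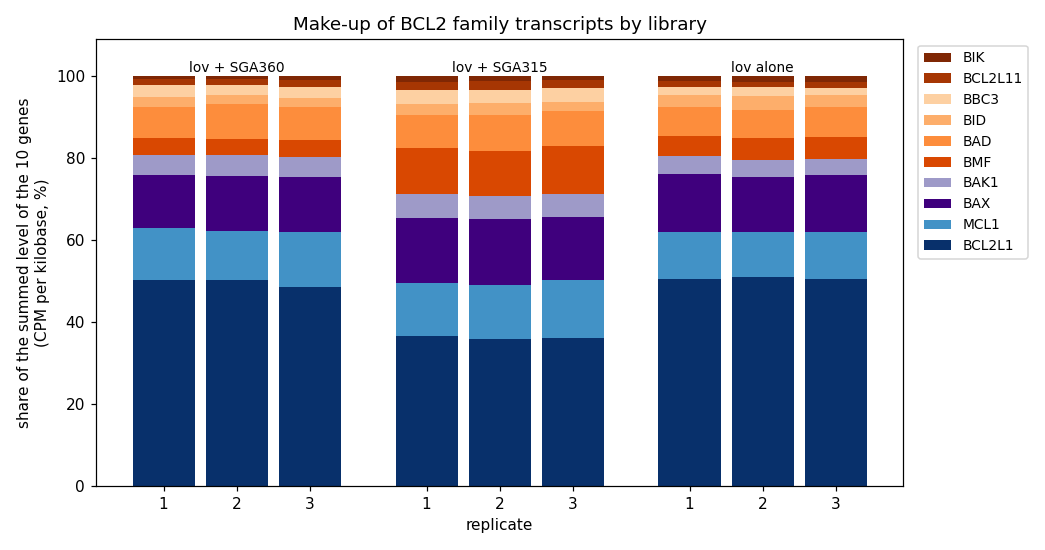
Share of each gene in the summed level of the 10 genes (CPM per kilobase, %) in each of the 9 libraries, with anti-apoptotic genes in blue, effectors in purple and BH3-only genes in orange and brown. The SGA315 libraries have a smaller blue part, 49 to 50.2%, and a larger part of BMF.

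The 5 genes with the pattern most like BMF over the 9 libraries, by Pearson correlation of log2 CPM, were LINC00673 (0.996), BSDC1 (0.993), CYP1A1 (0.99), SND1 (0.99) and NYNRIN (0.987). LINC00673, a long non-coding RNA, had 4.31 CPM with SGA360, 21.4 CPM with SGA315 and 9.17 CPM with lovastatin alone as group means. The most opposite patterns were those of FGFR2, a fibroblast growth factor receptor gene (−0.997), CHI3L1 (−0.997) and NR2F2, a nuclear receptor gene (−0.996). FGFR2 had 341.1 CPM with SGA360, 198.5 CPM with SGA315 and 254.1 CPM with lovastatin alone. The libraries fall into 3 groups, so these correlations mostly compare 3 group means and are given as a description. None of the other 9 members came near, with correlations from −0.69 for BCL2L1 to 0.58 for BCL2L11.

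The rest of the apoptosis pathway was read from 8 lists with 82 genes, of which 73 passed the filter. Over all 8 lists 24 genes rose and 30 fell with SGA360, and 32 rose and 33 fell with SGA315, at medians of −0.06 and 0.02, beside 0.02 and 0.04 over all genes. Of all genes 31.4% rose and 31.4% fell with SGA360, and 36.0% rose and 33.2% fell with SGA315. The shares in the lists were larger, but for the 24 of 73 that rose with SGA360 only slightly so. The lists were chosen with earlier results of these data known. Of the 3 tested anti-apoptotic BCL2 genes outside the members 2 rose with SGA360 and 2 rose and 1 fell with SGA315. BCL2L10 was the largest riser, at 8.71 ± 0.354 CPM with SGA360, 7.83 ± 0.709 CPM with SGA315 and 3.72 ± 0.735 CPM with lovastatin alone (log2 fold changes 1.23 ± 0.132 and 1.08 ± 0.138). BCL2L2 rose too, by 0.30 ± 0.055 and 0.53 ± 0.054, but shares exons with the read-through gene BCL2L2-PABPN1 and is uncertain. BCL2, the founding member, had 11 ± 0.283 CPM with SGA360, 7.24 ± 1.22 CPM with SGA315 and 10 ± 0.404 CPM with lovastatin alone. It fell by 0.47 ± 0.111 with SGA315 (edgeR adjusted p = 0.000138) and had 0.14 ± 0.099 with SGA360 (edgeR adjusted p = 0.218), which became a call when libraries were scaled to their totals (0.25, adjusted p = 0.0211, in a range of 0.0211 to 0.439).

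Of 9 other tested BH3-only and effector-like genes 4 rose and 2 fell with SGA360, and 6 rose and 2 fell with SGA315. Over all genes 31.4% rose and 31.4% fell with SGA360, and 36.0% rose and 33.2% fell with SGA315. Scaling to totals only gave 6 and 1 of these genes with SGA360, and 6 and 2 with SGA315. Over all 14683 genes it gave 6477 and 3136 with SGA360, and 6932 and 3619 with SGA315. HRK, a BH3-only gene, had 2.65 ± 0.47 CPM with SGA360, 3.11 ± 0.532 CPM with SGA315 and 1.21 ± 0.403 CPM with lovastatin alone, and was called higher with both. BCL2L14 rose with SGA315 (0.83 ± 0.1, edgeR adjusted p = 3.7e-11), to 16.1 ± 1.45 CPM, against 9.07 ± 1.21 CPM with lovastatin alone, and was lower with SGA360 than with SGA315 by 0.83 on the log2 scale (fold change −0.83 ± 0.098, edgeR adjusted p = 9.87e-11). BCL2L12 fell with both, by 0.34 ± 0.048 and 0.57 ± 0.051, but overlaps the more abundant IRF3.

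The inhibitor of apoptosis genes, whose products block caspases or carry the name by sequence, rose more often than they fell: 5 of 7 rose and 1 fell with SGA360 (median 0.35), and 6 rose and 1 fell with SGA315 (median 0.70), where 31.4% of all genes rose with SGA360 and 36.0% with SGA315. With scaling to totals only 6 rose and 1 fell with each ligand, where 6477 of all 14683 genes rose with SGA360 and 6932 with SGA315. BIRC3, which encodes cIAP2, had 11.3 ± 0.715 CPM with SGA360, 13.2 ± 1.74 CPM with SGA315 and 4.82 ± 0.588 CPM with lovastatin alone. BIRC2, which encodes cIAP1, rose by 0.47 ± 0.038 with SGA360 and by 0.77 ± 0.037 with SGA315 (edgeR adjusted p = 9.91e-18 and 9.91e-29). The gene that fell was BIRC5, survivin, which also acts in mitosis, at 48.9 ± 2.97 CPM with SGA360, 48.6 ± 3.06 CPM with SGA315 and 78.2 ± 1.22 CPM with lovastatin alone. Between the ligands 0 of these 7 genes were higher and 5 lower with SGA360 than with SGA315, where 20.9% of all genes were lower, led by BIRC2 (−0.30 ± 0.035, edgeR adjusted p = 9.78e-11).

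Downstream of the mitochondria, 2 of 10 apoptosome and release factor genes rose and 6 fell with SGA360 (2 and 4 with scaling to totals only), and 3 rose and 6 fell with SGA315, where scaling to totals only gave 4 and 4 and turned the median of −0.11 to 0.01. For this and the next 2 lists, 31.4% of all genes rose and 31.4% fell with SGA360, and 36.0% and 33.2% with SGA315. With scaling to totals only, 6477 of all 14683 genes rose and 3136 fell with SGA360. For SGA315 these numbers were 6932 and 3619. CYCS, the gene of cytochrome c, had 158.5 ± 1.29 CPM with SGA360, 147.6 ± 4.81 CPM with SGA315 and 233.4 ± 8.08 CPM with lovastatin alone, and VDAC1, a pore of the outer mitochondrial membrane, fell by 0.61 ± 0.027 and 0.56 ± 0.027. Both have many processed pseudogenes in RefSeq, so shared reads make their counts uncertain. Of 7 tested caspases 2 rose and 2 fell with SGA360 (4 and 2 with scaling to totals only), and 3 rose and 2 fell with SGA315 (4 and 2). CASP2 had the smallest p among them, at 49.4 ± 2.12 CPM with SGA360, 44.6 ± 1.88 CPM with SGA315 and 74 ± 1.79 CPM with lovastatin alone, whereas CASP4, an inflammatory caspase, rose by 0.66 ± 0.111 and 0.72 ± 0.111. Of 11 tested death receptor, ligand and adaptor genes 1 rose and 7 fell with SGA360 (1 and 4 with scaling to totals only), and 3 rose and 6 fell with SGA315 (4 and 5). TNFRSF10D, a decoy receptor for TRAIL, was at 24.6 ± 1.32 CPM with SGA360, 25.7 ± 0.595 CPM with SGA315 and 41.7 ± 1.6 CPM with lovastatin alone. FAS, FASLG, TNFRSF10C and TNFSF10 did not pass the filter.

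**Figure D4:**
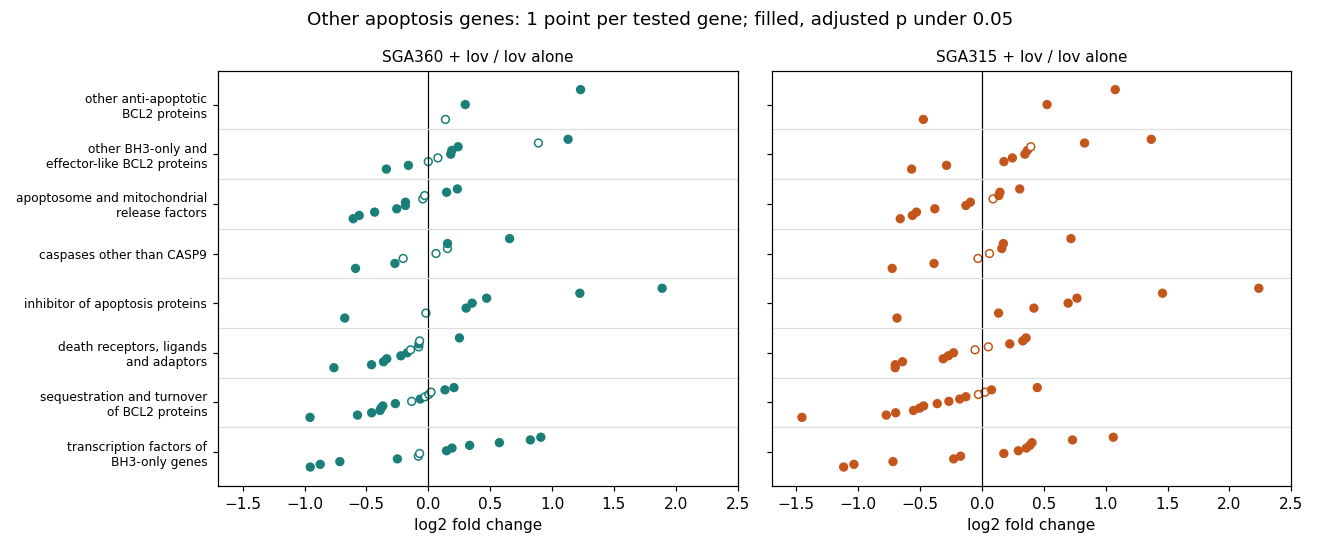
Log2 fold changes (horizontal axis) of the 73 tested genes of 8 apoptosis lists for SGA360 with lovastatin and SGA315 with lovastatin over lovastatin alone. Each point is a gene, filled where the adjusted p was under 0.05; all but 1 of the 7 inhibitor of apoptosis genes lie to the right of 0 with SGA315, where 6 were called higher.

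Of 14 genes whose products hold or degrade BCL2 proteins 2 rose and 8 fell with SGA360 (5 and 7 with scaling to totals only), and 2 rose and 10 fell with SGA315 (4 and 8). Over all genes the shares were 31.4% rising and 31.4% falling with SGA360, and 36.0% and 33.2% with SGA315. With scaling to totals only, 6477 of all 14683 genes rose and 3136 fell with SGA360. For SGA315 these numbers were 6932 and 3619. SFN, the gene of 14-3-3 sigma, had 24.1 ± 0.256 CPM with SGA360, 17.1 ± 1.03 CPM with SGA315 and 46.9 ± 2.14 CPM with lovastatin alone. DYNLL2, the dynein light chain that binds the BMF protein, was higher with SGA360 than with SGA315 by 0.27 ± 0.036 (edgeR adjusted p = 2.53e-09), at 135.7 ± 3.31 CPM with SGA360 and 112.4 ± 5.52 CPM with SGA315, beside 135.6 ± 4.33 CPM with lovastatin alone. Of 12 transcription factors known to control BH3-only genes 6 rose and 4 fell with SGA360, and 7 rose and 5 fell with SGA315. Scaling to totals only gave 6 and 3 with SGA360, and 7 and 4 with SGA315. E2F1 fell by 0.71 ± 0.041 and 1.12 ± 0.044, and MYC by 0.87 ± 0.032 and 0.72 ± 0.032 (edgeR adjusted p at most 1.58e-24 for each). DDIT3, the CHOP gene, rose by 0.91 ± 0.043 and 1.06 ± 0.042 but overlaps the more abundant MARS1. FOXO3, known to drive BH3-only genes, was lower with SGA360 than with SGA315 (−0.24 ± 0.042, edgeR adjusted p = 2.8e-06), at 65.8 ± 3.66 CPM with SGA360 and 77.3 ± 0.739 CPM with SGA315, beside 59.1 ± 1.87 CPM with lovastatin alone. Against lovastatin alone FOXO3 rose with both ligands. The log2 fold change was 0.15 ± 0.044 with SGA360 (edgeR adjusted p = 0.00285) and 0.39 ± 0.043 with SGA315 (edgeR adjusted p = 3.62e-12).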

How the data were processed

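RNA of 9 Caco-2 libraries, 3 per group, was sequenced after poly(A) enrichment, per the labels' protocols. The authors deposited whole-number counts of reads for each RefSeq transcript entry, with no normalization, as the columns' header and values show. The submitters' processing notes list TopHat2 2.0.13, HTSeq 0.5.4p3 and hg19, with no roles. Strand setting, annotation release and filters: not given in the sources used here. Of 65325 entries 64911 were named, 64340 from RefSeq (GRCh38.p14) and 571 from GENCODE 29; the 414 others, 0.224% of counts, were left out, as were 43 genes with counts identical to another gene's.

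Each gene was represented by its entry with the highest total. The test was edgeR's quasi-likelihood F test (version 4.0.16, R 4.3.3; TMM, filterByExpr with minimum count 10 and minimum total 15, 1 coefficient per group, 9 libraries in 1 fit), Benjamini-Hochberg adjusted over 14683 genes, with calls at an adjusted p under 0.05. The fit was also run on simulated data as a self-test, whose outcome is not given here and is not used as support. Alternatives were RLE scaling, scaling to totals, DESeq2 1.42.0, no filter, the compared groups only, a replicate block, the lowest accession and leaving out each library. The members, lists and comparisons were chosen with earlier results of these data known. The text names all members, the 3 tested genes of each list with the smallest p per comparison, and the genes most and least like BMF. Other comparisons of those genes were named after their values were seen. Intervals of 95% are from the fit. Length scaling used matched GENCODE 29 transcripts; the shortest length per gene was added as an alternative after seeing the data.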

Additional observations from a re-analysis of the deposited data

Results flagged for a closer look

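Among the 10 members and the 73 tested list genes, 3 had every SGA360 library on one side of every library with lovastatin alone and every SGA315 library on the other side. A share over all genes is not given for this pattern, so no excess is read from the 3. Against lovastatin alone, 66.3% of all genes did not overlap with SGA360 and 70.3% with SGA315, in either direction. BMF, among the 3, was singled out by name. Other list genes had log2 fold changes of opposite sign without a separation on opposite sides. Among them were TNFRSF25 (−0.14 with SGA360, 0.36 with SGA315) and CFLAR (−0.08 with SGA360, 0.22 with SGA315). TNFRSF25 overlaps ESPN, at 1386 counts in all against 1739 for TNFRSF25, so its counts are uncertain. BMF was below lovastatin alone in every SGA360 library and above it in every SGA315 library, a difference between the ligands of −1.25 on the log2 scale (SGA360 over SGA315) that was not tested. FOXO4, a FOXO factor gene, had 15.5 ± 0.318 CPM with SGA360, 22.6 ± 1.82 CPM with SGA315 and 18.4 ± 1.24 CPM with lovastatin alone. It differed between the ligands by −0.54 (edgeR adjusted p = 1.06e-08), with −0.25 for SGA360 (adjusted p = 0.00451) and 0.29 for SGA315 (adjusted p = 0.00035) against lovastatin alone; the SGA360 call was lost when libraries were scaled to their totals (−0.13, adjusted p = 0.126). BCL2 differed by 0.61 (edgeR adjusted p = 2.4e-06), and its libraries lay above lovastatin alone with SGA360, which was not a call (0.14, adjusted p = 0.218) unless libraries were scaled to their totals (0.25, adjusted p = 0.0211), and below it with SGA315.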

How the results depend on the processing

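Over 16 alternatives, 403 of 432 values of the 9 tested members kept their direction and side of the threshold. With scaling to totals only BMF was −0.51 for SGA360 and 0.74 for SGA315 against lovastatin alone, and leaving out 1 library gave −0.67 to −0.61 and 0.57 to 0.63. The members called between the ligands numbered 2 to 5 when 1 library was left out, beside 3 with all (2 without SGA360 replicate 2 or SGA315 replicate 1, 5 without SGA360 replicate 3); they were 5 to 6 for SGA360 and 7 for SGA315 against lovastatin alone. All 16 reversed values were of members with no call in the reversed fit. For SGA360, scaling to totals only turned BCL2L11 to 0.0173, BAD to 0.0427 and MCL1 to 0.0121, and leaving out 1 library gave −0.0139 to 0.0711 for BAK1. For SGA315, BCL2L11 turned to −0.00786 with RLE, −0.00779 with DESeq2, −0.00661 with no filter and −0.00149 with only the compared groups, and was −0.0271 to 0.0203 when 1 library was left out, while BAK1 turned to 0.0861 with scaling to totals only. BAX between the ligands turned to 0.00135 with the lowest accession. The cause was not tested.

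The groups share replicate numbers, but same-numbered libraries deviated from their group means with correlations of −0.0241 to 0.0457. No pairing by number was thus seen in the counts. Whether same-numbered libraries were handled together cannot be told from these values. With a replicate block the members called stayed at 5, 7 and 3, and the genes called were 9341, 10274 and 6443, beside 9209, 10162 and 6266 without it. Among the members depth limits BIK most, with 38 counts in its lowest library; of the list genes named, HRK is thinner, with 12.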
